A study of Homo sapiens with 6 samples.

Results

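Aminoacyl-tRNA synthetases join each amino acid to its tRNA and so supply the ribosome with charged tRNA. Their 35 genes measured here were found by symbol, as genes with at least 1 probe set annotated to that gene alone, among 15253 genes tested, and were read by 84 of the 39063 probe sets tested. Of these, 19 encode the cytosolic enzymes and 16 encode the mitochondrial enzymes, which serve the separate ribosome of that organelle. GARS1 and KARS1 were counted as cytosolic, although both genes also give the mitochondrial enzyme of their amino acid.

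RNA came from PANC-1, an established human cell line of pancreatic ductal cancer. Treated cells received anlotinib, an inhibitor of several receptor tyrosine kinases, at 5.535 μM for 48 h, and the controls received DMSO, its solvent, for the same time. There were 3 samples per group, each on 1 Affymetrix array, and no other allele or agent is named in the labels. The comparison asks which synthetase mRNAs differed between treated and control cells, and whether the cytosolic and the mitochondrial sets moved alike. Values are log2 signals, so a difference of 1 is a 2-fold change, and each gene was taken at its brightest probe set over the 6 arrays. A level is not compared between genes, since probes differ in brightness. Signals are relative to all RNA of a culture, so fewer expressing cells and less RNA per cell cannot be told apart.

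For most amino acids 1 gene gives the cytosolic enzyme and another the mitochondrial one. The enzymes fall into class I and class II by the fold of their catalytic domain, and EPRS1, which charges glutamate and proline, holds both. Several cytosolic synthetases are held together in the multi-synthetase complex. When charged tRNA runs short, the kinase GCN2 (EIF2AK4) phosphorylates eIF2α, translation of the transcription factor ATF4 rises, and ATF4 induces many cytosolic synthetase genes through a C/EBP-ATF response element, TGATGNAA. PERK (EIF2AK3) acts on the same step from the endoplasmic reticulum.

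That element was searched on both strands in the RefSeq promoter windows, which run from 250 bases before to 50 after a start site. Of the 35 members 30 had such a window, 39 windows in all, and AARS2, LARS1, VARS1, VARS2 and YARS1 had none. A match was found in 8 of the 39 windows (20.5%), against 3.62% of the 35116 windows of all genes. It lay in 7 of 16 cytosolic genes with a window and in 1 of 14 mitochondrial genes, YARS2. The 8 matches are shown because the changes of the genes that carry them are given with the ATF4 targets. Each sequence is from RefSeq (GRCh38.p14), 5′ to 3′ on the strand of the gene, with TGATGNAA or its reverse complement TTNCATCA in capitals.
AARS1, chr16:70289660-70289719, minus strand: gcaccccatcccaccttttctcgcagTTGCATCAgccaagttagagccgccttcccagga
CARS1, chr11:3057394-3057451, minus strand: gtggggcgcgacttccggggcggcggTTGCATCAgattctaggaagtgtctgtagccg
GARS1, chr7:30594819-30594878, plus strand: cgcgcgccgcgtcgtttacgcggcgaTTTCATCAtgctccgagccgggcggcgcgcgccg
IARS1, chr9:92293677-92293736, minus strand: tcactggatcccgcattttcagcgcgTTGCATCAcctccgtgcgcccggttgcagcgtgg
MARS1, chr12:57488038-57488097, plus strand: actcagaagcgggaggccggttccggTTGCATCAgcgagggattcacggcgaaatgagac
NARS1, chr18:57621807-57621848, minus strand: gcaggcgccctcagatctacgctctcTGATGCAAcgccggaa
TARS1, chr5:33440941-33440994, plus strand: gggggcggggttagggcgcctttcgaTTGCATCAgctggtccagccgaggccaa
YARS2, chr12:32756061-32756120, minus strand: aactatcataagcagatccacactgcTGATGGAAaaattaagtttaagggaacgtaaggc
The form with C, TGATGCAA, is contained in TGATGNAA and was found in 6 of the 39 windows (15.4%, against 0.866% of all windows), those of AARS1, CARS1, IARS1, MARS1, NARS1 and TARS1. In 5 of the 8 the match began within 20 bases of the start site, counted so that the first transcribed base is 1, from position -13 in IARS1 to position 15 in NARS1. A match is a string of letters and not evidence that ATF4 binds there.

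At a fold of at least 2 and an FDR under 0.05 in limma, 1 of the 35 members was lower under anlotinib and 0 were higher, against 1.91% and 2.1% of all genes. With the FDR alone, 16 members fell, 8 rose and 11 did not pass, and the median change over all 35 was -0.10. Over all genes 29.7% fell and 25.4% rose at that FDR, and the median was -0.04. Changes ran from -1.02 in QARS1 to 0.44 in FARSA. The plot of changes by gene shows that order.

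**Figure D1:**
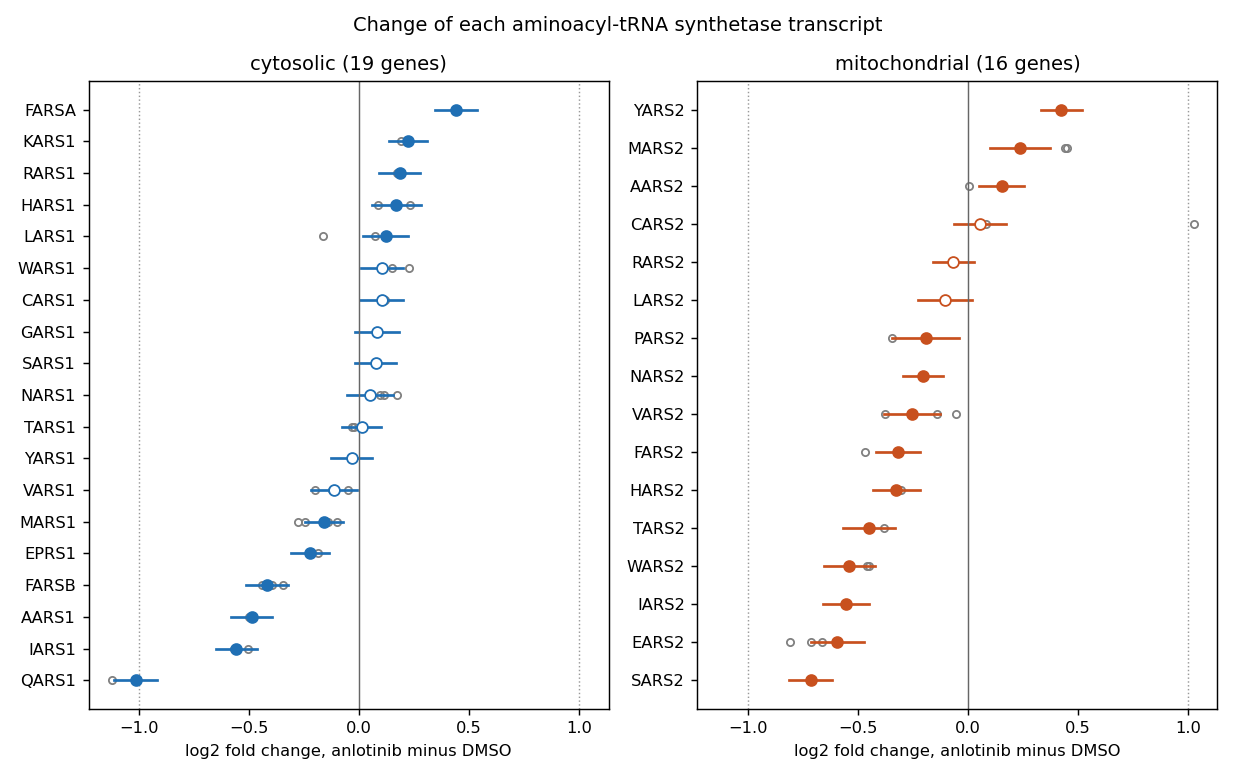
Log2 fold change (anlotinib minus DMSO) of the 35 synthetase genes, each at its brightest probe set, with 95% confidence intervals from limma, by compartment. QARS1 (-1.02) is the only member past the 2-fold limit, and the changes of the others lie between -0.71 (SARS2) and 0.44 (FARSA).

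QARS1, the only glutaminyl-tRNA synthetase, was the member called at 2-fold. Its signals were 11.73, 11.78 and 11.79 in the DMSO arrays and 10.73, 10.79 and 10.73 in the anlotinib arrays. All 3 treated arrays lay about 1 log2 unit below the controls, a 2.02-fold decrease (log2 change -1.02, SE 0.04, limma adjusted p = 2.97e-06). Its other probe set gave -1.12. Among all 15253 genes, QARS1 stood 280th from the lowest change. With any 1 array left out, the change stayed between -1.035 and -1.005 and the gene was called.

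Of the 19 cytosolic genes 5 rose (26.3%), 6 fell (31.6%) and 8 did not pass, with a median change of 0.05. These shares are near the 25.4% higher and 29.7% lower over all genes. In the multi-synthetase complex, 3 of 7 members rose (42.9%) and 4 fell (57.1%), beside the same 25.4% and 29.7%. KARS1, the lysyl enzyme, read 12.45, 12.46 and 12.46 in DMSO and 12.67, 12.68 and 12.69 in anlotinib, a rise of 0.22 (SE 0.04, limma adjusted p = 0.00149). RARS1, the arginyl enzyme, read 11.84, 11.82 and 11.84 in DMSO and 12.04, 11.98 and 12.05 in anlotinib, a rise of 0.19. The groups overlapped for neither gene. LARS1, the leucyl enzyme and a sensor of leucine, was the third to rise, by 0.12 (limma adjusted p = 0.0452). That call was lost when any 1 array was left out (adjusted p from 0.0549 to 0.13) or when the median of its probe sets was used (0.302), and a dimmer probe set gave -0.17, which did not pass. Of those that fell, IARS1, the isoleucyl enzyme, changed by -0.56, with 12.45, 12.49 and 12.48 in DMSO and 11.93, 11.88 and 11.94 in anlotinib. Its 4 probe sets lay between -0.57 and -0.51. EPRS1 fell by 0.22, and MARS1, the methionyl enzyme, fell by 0.16. Of the 5 probe sets of MARS1, 3 fell and the 2 dimmest did not pass. So within the complex the change ran from -1.02 in QARS1 to 0.22 in KARS1. AIMP1, a scaffold of the complex, rose by 0.23 (limma adjusted p = 0.00616). The other scaffolds were not tested.

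Outside the complex, 2 of 12 cytosolic genes rose (16.7%), 2 fell (16.7%) and 8 did not pass, with a median of 0.06, beside 25.4% higher and 29.7% lower over all genes. FARSA and FARSB encode the α and β subunits of the same phenylalanyl enzyme, and they moved in opposite directions. FARSA read 9.20, 9.26 and 9.27 in DMSO and 9.70, 9.67 and 9.69 in anlotinib, a rise of 0.44 (SE 0.04, limma adjusted p = 7.87e-05). FARSB read 11.22, 11.18 and 11.24 in DMSO and 10.83, 10.79 and 10.76 in anlotinib, and fell by 0.42 (SE 0.04, limma adjusted p = 1.08e-04). The groups were apart for both subunits, each the other way, and the 4 probe sets of FARSB lay between -0.44 and -0.35. FARSA had 1 probe set. The log2 ratio of FARSA to FARSB within an array rose by 0.86 (SE 0.03).

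AARS1, the alanyl enzyme, fell by 0.49 (SE 0.04, limma adjusted p = 4.27e-05), from 11.58, 11.58 and 11.54 to 11.11, 11.05 and 11.08. HARS1, the histidyl enzyme, rose from 10.48, 10.55 and 10.57 to 10.64, 10.71 and 10.75, which is a change of 0.17 (SE 0.05, limma adjusted p = 0.0187). The 2 other probe sets of HARS1 gave 0.09, which did not pass, and 0.23. Without DMSO array 1, anlotinib array 2 or anlotinib array 3, its adjusted p rose to 0.0566, 0.0533 and 0.055, and with the median of its probe sets to 0.0734. The remaining 8 genes had changes between -0.11 (VARS1) and 0.11 (WARS1), and their 95% intervals lay within -0.22 and 0.20. GARS1, TARS1, YARS1, CARS1, SARS1 and NARS1 were among them. For WARS1, the tryptophanyl enzyme, 2 of 3 probe sets passed upward (0.23 and 0.15), and for NARS1, the asparaginyl enzyme, 2 of 4 did (0.11 and 0.17), although the brightest probe set of each did not. Likewise 1 of 3 probe sets of CARS1 rose (0.12, limma adjusted p = 0.0366), and 1 of 4 of VARS1 fell (-0.20, limma adjusted p = 0.0267).

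The mitochondrial enzymes were lower more often than higher. Of 16 genes 10 fell (62.5%), 3 rose and 3 did not pass, with a median of -0.23, beside 29.7% lower and a median of -0.04 over all genes. SARS2, the mitochondrial seryl enzyme, fell most, by 0.71 (SE 0.04, limma adjusted p = 1.11e-05). Its arrays read 9.91, 9.92 and 9.85 in DMSO and 9.17, 9.16 and 9.21 in anlotinib. A further SARS2 probe set exceeded the limit on variation between arrays and was not tested. It gave -0.35, with arrays that overlapped. EARS2, the glutamyl enzyme, read 9.56, 9.43 and 9.44 in DMSO and 8.83, 8.90 and 8.92 in anlotinib, and fell by 0.59, and its 4 probe sets lay between -0.81 and -0.59. IARS2, the isoleucyl enzyme, read 11.14, 11.20 and 11.22 in DMSO and 10.63, 10.60 and 10.68 in anlotinib, and fell by 0.55. WARS2, the tryptophanyl enzyme, read 8.55, 8.54 and 8.44 in DMSO and 7.93, 7.95 and 8.03 in anlotinib, and fell by 0.54. For all 4 genes every treated array lay below every control array, with adjusted p between 1.11e-05 and 8.78e-05 in limma.

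The other mitochondrial genes that fell were TARS2 (-0.45), HARS2 (-0.32), FARS2 (-0.32), VARS2 (-0.25), NARS2 (-0.20) and PARS2 (-0.19), which charge threonine, histidine, phenylalanine, valine, asparagine and proline. The call of PARS2 was lost in 4 of the 6 fits that left out 1 array. Of the 4 probe sets of VARS2, 2 fell and 2 did not pass, and the call was lost when the median of its probe sets was used (adjusted p = 0.229) and when probe sets ending _x_at or _s_at were left out (-0.05, adjusted p = 0.602). In that last fit 8 of 15 mitochondrial genes fell. LARS2 (-0.10), RARS2 (-0.07) and CARS2 (0.05) did not pass. CARS2 also had a dim probe set at 4.68, 4.91 and 4.66 in DMSO and 5.53, 5.78 and 6.02 in anlotinib, a rise of 1.03 at the bottom of the signal range, where the lowest mean tested was 4.41. Its brighter 2 probe sets gave 0.05 and 0.08 and did not pass.

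Among the 3 mitochondrial genes that rose, YARS2, the tyrosyl enzyme, changed most. It read 10.13, 10.14 and 10.16 in DMSO and 10.55, 10.61 and 10.55 in anlotinib, a rise of 0.42 (SE 0.04, limma adjusted p = 9.17e-05). MARS2, the methionyl enzyme, read 8.65, 8.81 and 8.70 in DMSO and 9.0003, 8.99 and 8.88 in anlotinib, a rise of 0.24, and its other probe sets gave 0.44 and 0.45. AARS2, the alanyl enzyme, read 7.60, 7.53 and 7.57 in DMSO and 7.76, 7.72 and 7.68 in anlotinib, a rise of 0.15 (limma adjusted p = 0.0179). For AARS2 the other probe set gave 0.00, and its call was lost without DMSO array 2, DMSO array 3 or anlotinib array 1, with centred arrays (adjusted p = 0.0541) and with the median of its probe sets (adjusted p = 0.145). The groups did not overlap at the brightest probe set of any of the 3.

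The same contrast between compartments was present array by array. For each array the deviation of every member from its own mean over the 6 arrays was taken, and the median over the members was read. Over the mitochondrial enzymes this median was 0.13, 0.13 and 0.09 in DMSO and -0.16, -0.08 and -0.12 in anlotinib. Over the cytosolic enzymes it was 0.00, -0.02 and -0.03 in DMSO and 0.03, 0.00 and 0.03 in anlotinib. Over all genes it was 0.03, -0.01 and 0.03 in DMSO and -0.0045, -0.02 and -0.02 in anlotinib. The mitochondrial medians of the treated arrays all lay below those of the controls, and by more than over all genes. These medians describe the lists and carry no test. As another set of nuclear genes for mitochondrial translation, the 74 mitochondrial ribosomal protein genes had 24 higher (32.4%) and 25 lower (33.8%), with a median of -0.01. Both shares were above the 25.4% and 29.7% of all genes.

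**Figure D2:**
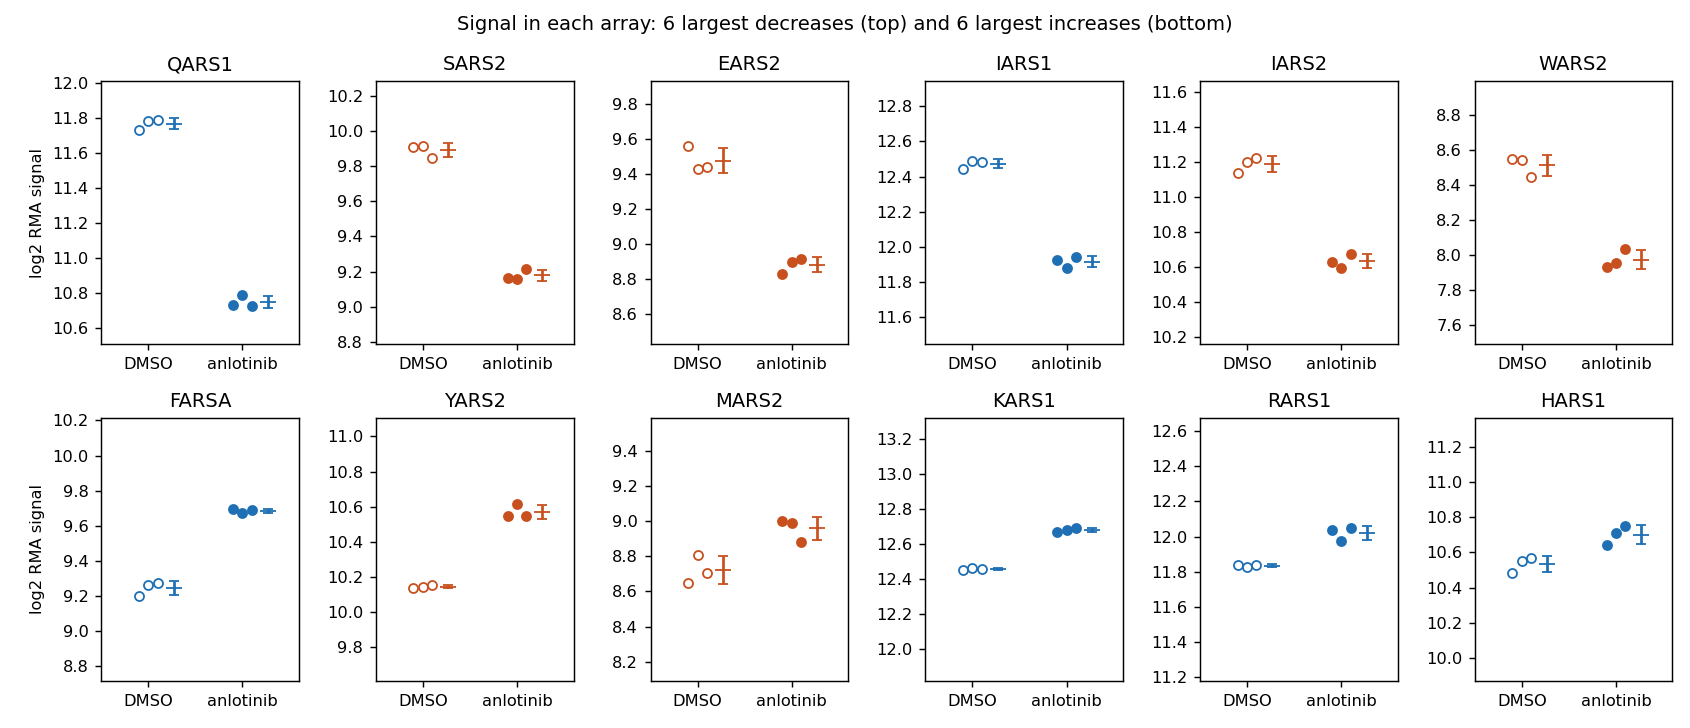
Log2 signals in the 3 DMSO and 3 anlotinib arrays for the 6 members that fell most (top) and the 6 that rose most (bottom). They were taken among the members past the FDR with no overlap of arrays. The largest decrease is that of QARS1 (-1.02) and the largest increase is that of FARSA (0.44).

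Cytosolic and mitochondrial enzymes of the same amino acid were then set against each other, in 17 pairs. EPRS1 and FARS2 each entered more than once, so not all of the pairs are independent. The change was higher for the cytosolic gene in 11 pairs, and the median difference was 0.22. SARS1 against SARS2 differed most, by 0.79 (SE 0.02), since SARS1 changed by 0.07 and SARS2 by -0.71. FARSA against FARS2 differed by 0.76 (SE 0.04) and WARS1 against WARS2 by 0.64 (SE 0.03). AARS1 against AARS2 ran the other way, by -0.64 (SE 0.03), as did YARS1 against YARS2 (-0.46, SE 0.04) and MARS1 against MARS2 (-0.40, SE 0.06). IARS1 and IARS2 fell together and differed by -0.0045 (SE 0.02, exact permutation p = 0.8). In 12 of the 17 pairs the exact two-sided permutation p was 0.1, the smallest possible here, and adjusted over the 17 pairs it was 0.142, so that no pair could pass a threshold of 0.05 by that test. The other 5 pairs, CARS1 with CARS2, VARS1 with VARS2, FARSB with FARS2, EPRS1 with PARS2, and IARS1 with IARS2, had differences between -0.10 and 0.14 and exact permutation p from 0.2 to 0.8.

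In 4 pairs the genes passed the FDR in opposite directions, namely AARS1 with AARS2, FARSA with FARS2, HARS1 with HARS2 and MARS1 with MARS2. For FARS2 the arrays read 8.71, 8.73 and 8.70 in DMSO and 8.34, 8.40 and 8.44 in anlotinib. For MARS1 they read 12.19, 12.18 and 12.21 in DMSO and 12.02, 12.05 and 12.03 in anlotinib. The 4 pairs do not share a direction, as the cytosolic gene was the higher for histidine and phenylalanine and the lower for alanine and methionine. The calls of AARS2 and HARS1, on which the alanine and histidine pairs rest, were lost under the settings given above.

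**Figure D3:**
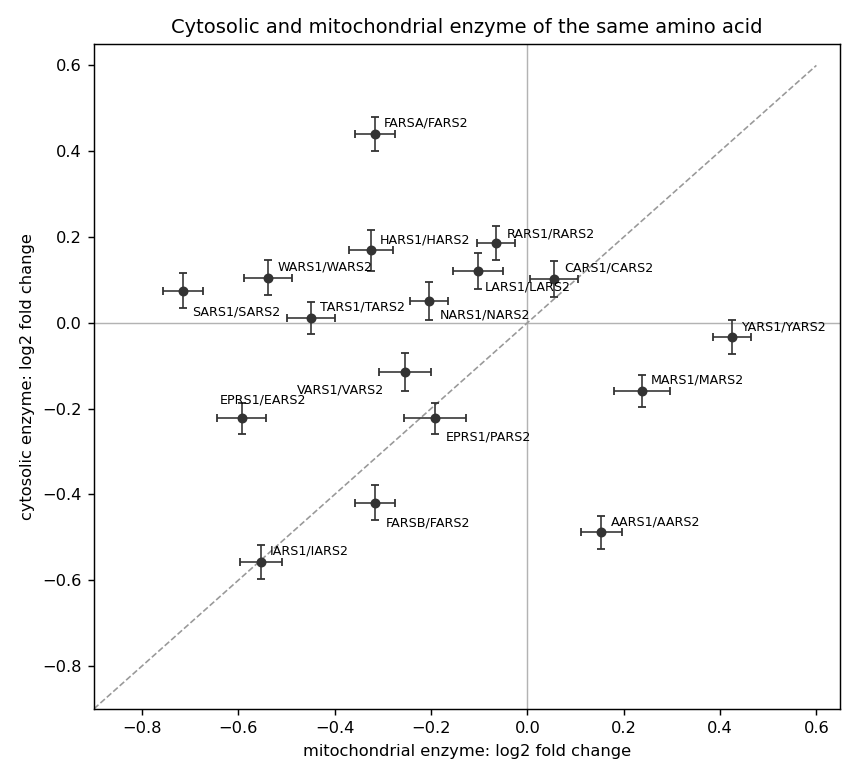
Log2 fold change of the mitochondrial (horizontal) and cytosolic (vertical) enzyme for each of the 17 pairs, with bars of 1 SE and the line of equal change. SARS1/SARS2 lies farthest above the line (a difference of 0.79) and AARS1/AARS2 farthest below it (-0.64), while IARS1/IARS2 lies on it.

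HARS1 and HARS2 lie head to head on chromosome 5, transcribed away from a common stretch of 84 bases between their RefSeq start sites. SARS2 is placed likewise beside MRPS12, which encodes a protein of the small mitochondrial ribosomal subunit, with 180 bases between the starts on chromosome 19. These stretches are shown because in each pair the 2 genes moved in opposite directions. They are from RefSeq (GRCh38.p14) on the plus strand, with the bases between the starts in capitals and 20 bases of each gene in lower case.
HARS1 and HARS2, chr5:140691351-140691474, plus strand: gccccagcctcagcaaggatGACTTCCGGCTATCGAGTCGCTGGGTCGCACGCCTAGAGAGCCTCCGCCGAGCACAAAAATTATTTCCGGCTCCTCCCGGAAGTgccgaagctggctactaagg
SARS2 and MRPS12, chr19:38930744-38930963, plus strand: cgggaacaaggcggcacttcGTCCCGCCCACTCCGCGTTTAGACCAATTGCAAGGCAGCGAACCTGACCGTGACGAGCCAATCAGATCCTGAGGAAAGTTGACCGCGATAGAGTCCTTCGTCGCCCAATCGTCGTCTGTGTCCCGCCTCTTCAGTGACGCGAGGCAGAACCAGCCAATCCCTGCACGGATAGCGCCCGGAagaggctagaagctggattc
Both stretches were scanned for CCGGAAG, the core that ETS factors bind, on either strand, with the flanking 20 bases included, and both hold it. CCGGAAG was found in 19 of the 39 member windows (48.7%), from 16 of 30 genes, against 10.3% of all windows. It was present beside members that rose (FARSA had no match, KARS1 and RARS1 had one), that fell (SARS2, TARS2) and that did not pass (GARS1, TARS1).

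HARS2 fell from 10.16, 10.11 and 10.04 in DMSO to 9.76, 9.76 and 9.80 in anlotinib (log2 change -0.32, SE 0.04, limma adjusted p = 6.49e-04), while HARS1 rose by 0.17. The log2 ratio of HARS1 to HARS2 within an array rose by 0.49 (SE 0.06). MRPS12 read 12.53, 12.55 and 12.55 in DMSO and 12.82, 12.84 and 12.87 in anlotinib, a rise of 0.30 (SE 0.04, limma adjusted p = 4.13e-04). Other MRPS12 probe sets gave 0.66, 0.87 and, for a dim one that did not pass, -0.16. The ratio of SARS2 to MRPS12 changed by -1.01 (SE 0.03), given as a description with no test, since the pair was chosen for moving in opposite directions. In both pairs the treated and control arrays were apart for each gene.

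**Figure D4:**
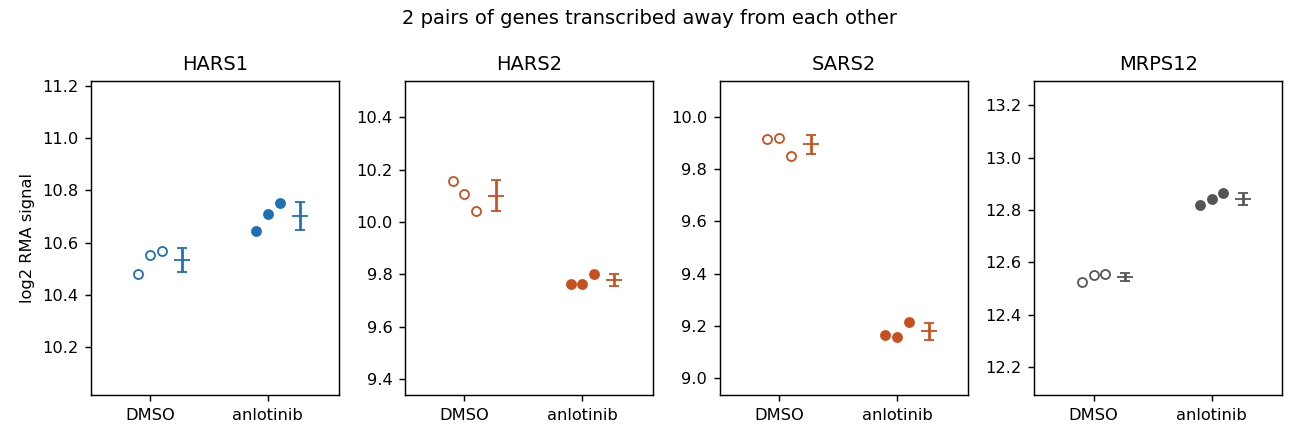
Log2 signals in the 3 DMSO and 3 anlotinib arrays for HARS1 and HARS2 and for SARS2 and MRPS12, pairs of genes transcribed away from each other. HARS1 and MRPS12 are higher in the anlotinib arrays (by 0.17 and 0.30), and HARS2 and SARS2 are lower (by 0.32 and 0.71).

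Other members also had a measured neighbour within 300 bases on the opposite strand. KARS1 (0.22) and TERF2IP (0.40), which encodes a telomere protein, both rose. RARS2 (-0.07) did not pass while ORC3 (-0.61), a subunit of the origin recognition complex, fell. FARS2 (-0.32) fell while LYRM4 (-0.03), which acts in iron-sulphur cluster assembly, did not pass, and for WARS1 (0.11) with WDR25 (0.07) neither gene passed.

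Of the 12 synthetases commonly listed as ATF4 targets 1 rose (LARS1, 0.12), 4 fell (IARS1, AARS1, EPRS1 and MARS1) and 7 did not pass, with a median of 0.03. In this fit the 8.33% higher lie below the 25.4% of all genes, and the 33.3% lower lie near their 29.7%. The share higher depends on the setting. With eBayes trend 9 in place of 5 cytosolic genes were higher, among them CARS1 and GARS1 (limma adjusted p = 0.00646 and 0.0159). All the genes gained are listed as ATF4 targets. Of all 15253 genes 4104 were higher with that setting. The share of listed genes that rose was then no longer below that of all genes. Without that setting, the 7 cytosolic genes that are not listed had 4 higher (57.1%) and 2 lower (28.6%), with a median of 0.17. Among the 7 cytosolic genes with a TGATGNAA match shown above, IARS1 (-0.56), AARS1 (-0.49) and MARS1 (-0.16) fell, and TARS1 (0.01), NARS1 (0.05), GARS1 (0.08) and CARS1 (0.10) did not pass. YARS2, the mitochondrial gene with a match, rose by 0.42. ATF4 mRNA itself read 13.79, 13.75 and 13.75 in DMSO and 13.80, 13.77 and 13.80 in anlotinib, a change of 0.02 (95% interval from -0.06 to 0.11). Its only tested probe set ends _x_at. ATF4 is controlled mainly in translation, which these arrays do not read.

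Of 8 ATF4 targets outside tRNA charging 6 fell (75.0%), 0 rose and 2 did not pass, with a median of -0.51, beside 29.7% lower and 25.4% higher over all genes. CHAC1, which degrades glutathione, fell by 0.87, PSAT1 of serine synthesis by 0.84, and TRIB3, a pseudokinase induced under stress, by 0.73. ASNS, asparagine synthetase, read 12.82, 12.82 and 12.84 in DMSO and 12.42, 12.44 and 12.47 in anlotinib, and fell by 0.38 (SE 0.04, limma adjusted p = 1.20e-04), and its 3 other probe sets lay between -0.42 and -0.41. PHGDH (0.02) and SHMT2 (-0.06) did not pass. Of the 6 regulators, 3 rose (50%, against 25.4% of all genes), 1 fell and 2 did not pass. EIF2AK3 rose by 0.95 and EIF2AK4 by 0.61, while DDIT3, a transcription factor downstream of ATF4, fell by 0.22. EIF2AK3 was read at a probe set ending _s_at and EIF2AK4 at one ending _x_at. With such probe sets left out, 2 regulators rose. MYC, a transcription factor of growth whose E-box CACGTG was in 5 of the 39 member windows (12.8%, against 7.26% of all windows), read 11.54, 11.49 and 11.50 in DMSO and 12.11, 12.15 and 12.18 in anlotinib, a rise of 0.64 (limma adjusted p = 1.59e-05). Of the 4 genes with that E-box, EARS2 and IARS1 fell, MARS2 rose and CARS2 did not pass. The palindromic NRF1 site, searched on both strands, was in 1 window, that of MARS2 (2.56% of the member windows, against 1.24% of all).

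Of 21 other listed genes that handle tRNA for charging and delivery, 18 were measured, of which 10 fell (55.6%), 3 rose (16.7%) and 5 did not pass, with a median of -0.16, beside 29.7% lower and 25.4% higher over all genes. Without probe sets ending _x_at or _s_at the split was 7 lower and 6 higher. Such probe sets were the ones read for all the cytosolic elongation factors and for QRSL1, GATB, MTFMT, SEPSECS and TRNT1. The changes given below for these genes rest on them. DTD1 and DTD2, which remove wrongly attached amino acids from tRNA, fell by 0.72 and 0.48. In mitochondria glutamine is not attached directly. EARS2 attaches glutamate to the glutamine tRNA, and an amidotransferase of QRSL1, GATB and GATC converts it. Of the genes of that route, EARS2 (-0.59), GATB (-0.47) and QRSL1 (-0.34) fell, and GATC (0.12) did not pass. QARS1, which attaches glutamine in the cytosol, fell as described above. MTFMT, which formylates the mitochondrial initiator tRNA, rose by 0.19. Of 7 elongation factors 5 fell (71.4%, against 29.7% of all genes) and 0 rose (against 25.4%), with EEF1A2 at -0.41, EEF1D at -0.21 and the mitochondrial TSFM at -0.21. Of the pair for selenocysteine, SEPSECS fell by 0.44 and PSTK rose by 0.18. XPOT, which exports tRNA from the nucleus (0.05), and TRNT1, which adds the CCA end (-0.11), did not pass.

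**Figure D5:**
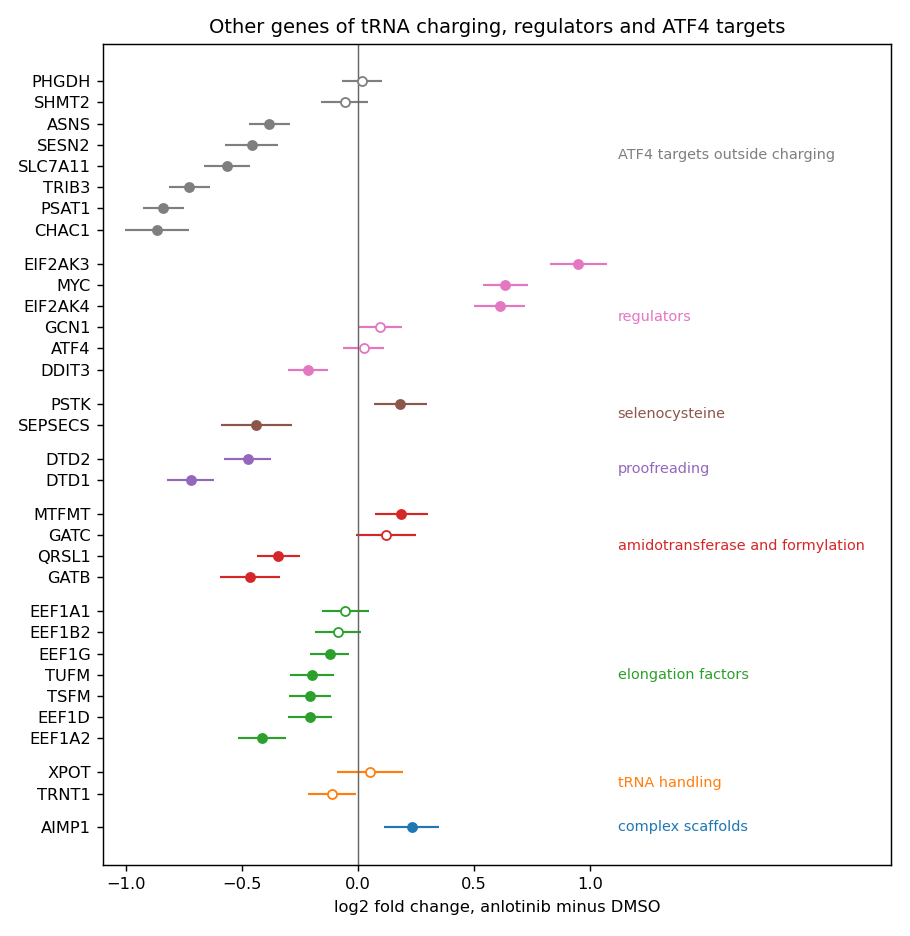
Log2 fold change (anlotinib minus DMSO) with 95% confidence intervals for the other genes of tRNA charging, its regulators and the ATF4 targets outside charging. The targets of ATF4 lie between -0.87 (CHAC1) and 0.02 (PHGDH), ATF4 itself is at 0.02, and EIF2AK3 (0.95) and MYC (0.64) are the highest regulators.

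By catalytic fold, class I had 4 of 18 higher (22.2%) and 7 lower (38.9%), with a median of -0.08, and class II had 4 of 16 higher (25%) and 8 lower (50%), with a median of -0.09. Over all genes 25.4% were higher and 29.7% lower. Of the 26 members with several probe sets, 24 had the same sign in all of them, and 0 passed the FDR in both directions.

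The arrays were alike in level, with medians from 7.71 to 7.77 and correlations from 0.977 to 0.978 between groups and 0.998 within them. The 3′ minus 5′ signal of the ACTB control probe sets lay between -0.16 and -0.11 in DMSO and between -0.10 and -0.06 in anlotinib, while the groups overlapped for GAPDH, and the part of this shift in the changes above was not tested. The epithelial keratins KRT8, KRT18 and KRT19 read between 12.89 and 14.61 in every array and KRT7 between 8.19 and 8.55, and all 4 fell under anlotinib, with changes from -0.75 to -0.26. Of 15 markers of leukocytes, fibroblasts, endothelial, acinar and endocrine cells, 8 were tested and read between 4.89 and 6.79, below the median of every array. Of these 0 rose, and PECAM1 (-0.28) and COL1A1 (-0.30) fell.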

How the data were processed

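Total RNA of 3 anlotinib-treated and 3 DMSO-treated PANC-1 samples was profiled on Affymetrix PrimeView arrays. Samples were grouped by their labels, which do not state separate cultures, so p-values measure the spread between these samples only. The authors used RMA, which adjusts background, normalizes arrays and combines the probes of a set, to give log2 values. They filtered out probe sets in the lowest 20% of signals or with a CV over 25% within a group, and deposited 39219 probe sets. RMA equalizes the distributions of the arrays, so a shift common to all genes would not be seen. Arrays give no counts, and their number limits the precision.

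Of these, 73 control probe sets and 83 probe sets with a CV over 25% within a group on the linear scale were left out, and the other 39063 entered 1 linear model per probe set (lmFit, then eBayes with 2.98 prior degrees of freedom, in limma 3.58.1 under R 4.3.3), with p-values adjusted by Benjamini and Hochberg over all of them. The paper gives the CV limit without its scale, and the 83 probe sets over it here were among those that the authors kept. Genes were named for 35858 probe sets annotated to 1 gene, through the array annotation, and each gene was taken at its brightest probe set. All 35 members matched the RefSeq gene table by identifier and symbol. Besides a SARS2 probe set over the CV limit, 4 probe sets annotated to a member and another gene entered no count. The paper's call of a 2-fold change at an FDR under 0.05 was used beside the FDR alone. Log ratios of the 17 pairs of 1 amino acid were compared with exact two-sided permutation tests. Promoter windows came from RefSeq (GRCh38.p14) and were searched in Python 3.11.15; start sites of neighbouring genes were read from the same windows.

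The members and lists were chosen with earlier results of these data known. Values by array are given for the 6 members that rose most and the 6 that fell most among those past the FDR with no overlap of arrays, for HARS1 and HARS2, for opposite pairs, and for ATF4, MYC and ASNS; of the other lists the changes of the leading genes are given. MRPS12 and the other neighbours, AARS1 and FARSB in detail, and the mitochondrial ribosomal proteins were chosen after values were seen. Alternatives covered the CV and signal filters, normalization, centring, eBayes settings, the probe set taken, the fold limit, the replicate number as a block and each array left out. The fit was tested on simulated data.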

Additional observations from a re-analysis of the deposited data

Results flagged for a closer look

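A pair of probe sets annotated to both VARS2 and GTF2H4, a subunit of a general transcription factor, entered no gene count and were higher under anlotinib. The first changed by 0.338 (limma adjusted p = 8.61e-04) and the second by 0.371 (limma adjusted p = 8.97e-04), while VARS2 at its own brightest probe set changed by -0.25.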

How the results depend on the processing

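Over the 35 members, 510 single-gene results kept their direction and side of the FDR under the alternatives, 23 (5 genes) no longer passed, 22 (7 genes) newly passed and 3, all of TARS1, reversed. TARS1 changed to -0.0023 with centred arrays and to -0.0301 with the median of its probe sets and to -0.0301 with the probe set of smallest p, and passed in none of these. The 2-fold calls were 1 lower throughout, except 3 lower at a fold limit of 1.5 (QARS1, SARS2 and EARS2), and 0 higher except 1 (CARS2) with the probe set of smallest p. That choice of probe set also gave 8 cytosolic genes higher, a cytosolic median of 0.075, a mitochondrial median of -0.31, a difference between the medians of 0.38, and 5 other charging genes higher. With eBayes trend, or trend and robust settings, 9 cytosolic genes were higher. Without probe sets ending _x_at or _s_at, 33 members were measured and 8 mitochondrial genes were lower. In that fit 6 other charging genes were higher and 7 lower, and 2 in place of 3 regulators were higher. The median over the 17 pairs was 0.17 with the median of the probe sets. With 1 array left out in turn, between 3 and 4 cytosolic genes were higher, with 3 without anlotinib array 2 and without anlotinib array 3. Over the same fits the cytosolic median lay between 0.0241 and 0.0551, with the lowest without anlotinib array 2, and the pair median between 0.16 and 0.24, with the lowest without anlotinib array 3. The cause of these changes was not tested. The labels do not state whether the replicate numbers pair the samples. Same-numbered arrays correlated in their deviations at 0.167, 0.00625 and -0.145, which cannot decide this with 3 arrays per group. With the number as a replicate block, the calls stayed at 0 higher and 1 lower, 4 in place of 5 cytosolic genes were higher since LARS1 no longer passed (adjusted p = 0.0974), and 9 in place of 10 other charging genes were lower. The median of all genes moved between -0.06 and -0.01 over the settings. With 3 arrays per group small changes can be missed, and a dim probe set, as that of CARS2, is less reliable.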
